A study of Mus musculus with 30 samples.

Results

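The 10 genes described here encode proteins of blood vessel endothelium and the secreted factors that act on it, and they were taken by symbol from the 53431 genes of the count table. They are the endothelial surface genes Pecam1 and Cdh5, the receptor genes Kdr, Flt1 and Tek, and the ligand genes Vegfa, Vegfc, Pgf, Angpt1 and Angpt2. The genes were taken by name, not by a cut on expression, but with earlier results of these data known. RNA-seq was done on CT-26 and Colon 26, 2 mouse colon carcinoma cell lines, with 3 cultures of each line and 4 tumors of each model at 100, 400 and 800 mm3, which gives 30 libraries in 8 groups. All tumors were grown under the flank skin of BALB/c females, a strain with a working immune system, and no genotype or strain differs between the groups. Ages of the mice were not given in the sources used here. The label text describes dosing with anti-mouse CTLA-4, PD-1 and PD-L1 antibodies, but no label names an antibody for any library, and the tumors were taken as untreated. The labelled volumes ran from 103.33 to 145.86 mm3 in the smallest CT-26 group and from 102.9 to 124.88 mm3 in the smallest Colon 26 group, and the sources name RIKEN and CoBioer as suppliers of Colon 26 and ATCC of CT-26. A tumor library holds RNA of tumor cells, vessels and other host cells together, so more endothelial cells and more RNA per endothelial cell cannot be told apart. Libraries held 21384730 to 39722586 counts, the Colon 26 cultures being deepest (36042940 to 39722586), and depth and model cannot be told apart in the cultures. The CT-26 cultures, the Colon 26 cultures and the tumors also carry library numbers of separate series. Whether these series were processed apart is not given. Library series can therefore not be told apart from model in the cultures, nor from tissue between cultures and tumors. The labels do not say whether libraries of a group came from separate cultures, so p-values for cultures measure only the spread between these libraries.

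New vessels form in growing tumors when endothelial cells answer to secreted growth factors. VEGF-A, VEGF-C and placental growth factor (Pgf) belong to 1 family of ligands. VEGF-A binds VEGFR-1 (Flt1) and VEGFR-2 (Kdr), Pgf binds VEGFR-1, and VEGF-C acts mainly on lymphatic endothelium through VEGFR-3 (Flt4). Angiopoietin-1 (Angpt1) activates the receptor Tie2 (Tek) and stabilises vessels, and angiopoietin-2 (Angpt2), made by endothelial cells themselves, can oppose it. Pecam1 encodes CD31 and Cdh5 encodes VE-cadherin, adhesion proteins at endothelial junctions, although Pecam1 is also made by platelets and some leukocytes.

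In the GENCODE annotation of GRCm38 all 10 are protein-coding genes. Pecam1 lies on chr11:106654217-106750628, Cdh5 on chr8:104101625-104144511, Kdr on chr5:75932827-75978458, Flt1 on chr5:147561604-147726011 and Tek on chr4:94739289-94874976. The ligand genes are Vegfa on chr17:46016993-46032369, Vegfc on chr8:54077606-54187096, Pgf on chr12:85166635-85177790, Angpt1 on chr15:42424723-42676977 and Angpt2 on chr8:18690263-18741562. The exons of Angpt1 overlap those of Gm17473 on the other strand over 737 bases, and the strand handling of the counting is not given in the sources used here, so counts of Angpt1 may include reads of that gene. RefSeq promoter windows (GRCm38.p6, 250 bases before and 50 after a start) were present for 6 members, namely Tek, Kdr, Flt1, Vegfc, Pgf and Vegfa. The 250 bases before the start of the receptor genes, which followed Cdh5 between CT-26 tumors, and of Vegfa are shown because a motif search was run on them. Capitals mark CGGAAG or AGGAAG, the core of ETS factor sites, and ACGTG or GCGTG, the core of hypoxia response elements, on either strand; the 2 sets of letters share no sequence.
Kdr promoter, chr5:75978456-75978705, minus strand: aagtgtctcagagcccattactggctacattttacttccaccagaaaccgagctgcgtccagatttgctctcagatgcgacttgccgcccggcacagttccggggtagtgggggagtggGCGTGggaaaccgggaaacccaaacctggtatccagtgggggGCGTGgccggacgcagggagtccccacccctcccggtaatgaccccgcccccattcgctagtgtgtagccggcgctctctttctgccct
Flt1 promoter, chr5:147726012-147726261, minus strand: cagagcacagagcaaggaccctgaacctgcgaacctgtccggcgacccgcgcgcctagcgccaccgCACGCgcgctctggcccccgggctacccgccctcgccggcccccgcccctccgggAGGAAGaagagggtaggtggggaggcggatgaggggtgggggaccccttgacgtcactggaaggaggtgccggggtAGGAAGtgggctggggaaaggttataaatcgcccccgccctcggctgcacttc
Tek promoter, chr4:94739039-94739288, plus strand: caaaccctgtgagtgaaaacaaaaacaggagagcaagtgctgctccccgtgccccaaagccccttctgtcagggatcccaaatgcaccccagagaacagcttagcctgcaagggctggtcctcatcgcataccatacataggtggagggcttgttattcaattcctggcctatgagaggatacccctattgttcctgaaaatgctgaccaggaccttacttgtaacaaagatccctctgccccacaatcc
Vegfa promoter, chr17:46032378-46032627, minus strand: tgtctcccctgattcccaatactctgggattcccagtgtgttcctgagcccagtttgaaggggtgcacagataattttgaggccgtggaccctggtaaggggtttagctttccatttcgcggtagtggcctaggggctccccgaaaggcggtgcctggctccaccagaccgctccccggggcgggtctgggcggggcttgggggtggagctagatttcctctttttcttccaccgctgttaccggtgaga
The Flt1 window held 2 ETS matches and 1 hypoxia match, the Kdr window 2 hypoxia matches, and the Tek window and this Vegfa window none. A second Vegfa start listed by RefSeq lies inside the gene, and its window held 2 hypoxia matches. Of all 32851 windows of 300 bases, 46.5% held an ETS match and 43.8% a hypoxia match, so both sets of letters are common.

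Vegfa had the highest level of the 10 genes in every group on the length-corrected FPKM scale. Its mean FPKM was 148 ± 3.71 (SD, n = 3) in CT-26 cultures and 135 ± 2.19 (n = 3) in Colon 26 cultures, and 43.5 to 75.0 in the 6 tumor groups. In tumors Pecam1 had the second highest mean FPKM in every group, at 12.3 to 18.4, but its range was apart from that of the next gene in CT-26 tumors of 800 mm3 alone. Angpt1 had the lowest mean in every tumor group, at 0.121 to 0.266, and its range overlapped that of Vegfc in CT-26 and of Tek in Colon 26 at 400 mm3. In the CT-26 tumors of 100 mm3, the FPKM ranges of Pecam1, Cdh5, Flt1, Pgf, Kdr and Angpt2 overlapped from each gene to the next in the order, so that their order there is not fixed. Angpt2 and Flt1 ranked next after Vegfa in CT-26 cultures at 0.546 and 0.422 FPKM, with overlapping ranges, and Flt1 and Angpt2 in that order followed Vegfa in Colon 26 cultures at 0.806 and 0.180 FPKM. All further levels are CPM on TMM-scaled library sizes, with which 1 gene is compared between libraries.

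**Figure D1:**
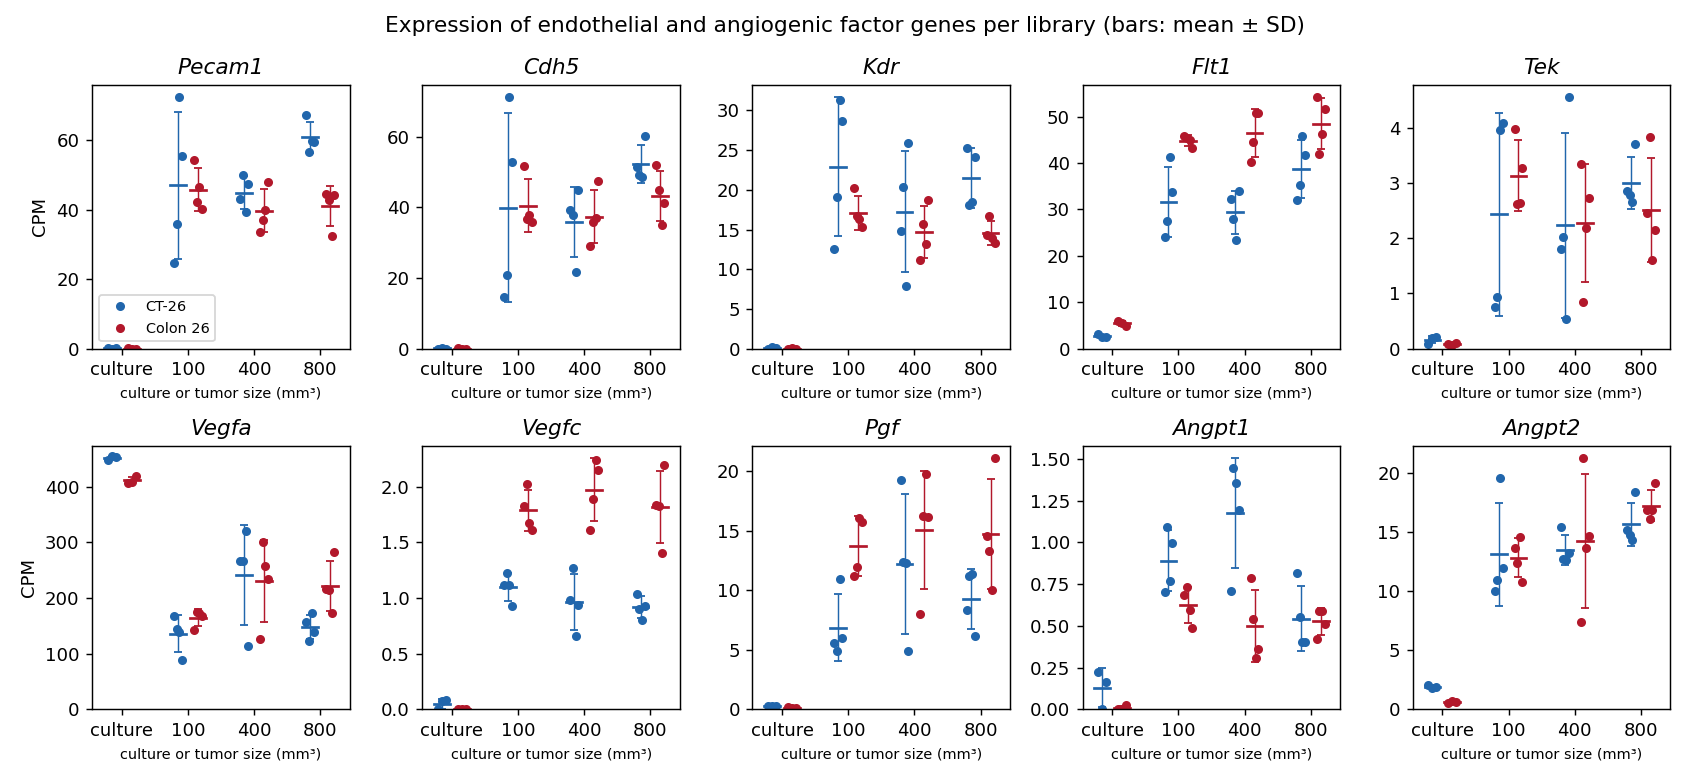
CPM of each gene (vertical axis, from 0, scale differs by gene) in cultures and in tumors of 100, 400 and 800 mm3, with CT-26 in blue and Colon 26 in red; points are libraries and bars the mean ± SD of 3 cultures or 4 tumors. Vegfa alone was higher in cultures than in tumors, and Vegfc of the models was apart at every tumor size.

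The first comparison asks which of the genes the cancer cells express without a host. Differential expression (DE) was called where the edgeR adjusted p did not exceed 0.1 and the log2 fold change was 1 or more in either direction. From culture to tumors of 100 mm3, 9 of the 10 genes were DE and higher in both models and Vegfa was DE and lower in both. Of all genes tested, 22.2% were DE and higher and 10.1% DE and lower in CT-26, and 20.8% and 6.11% in Colon 26. The median log2 fold change of the 10 genes was 4.04 in CT-26 and 6.19 in Colon 26, beside 0.06 and 0.05 over all genes tested.
Pecam1, Cdh5 and Kdr were close to undetected in culture. Pecam1 had 3, 1 and 4 counts in the CT-26 cultures and 2, 0 and 0 in the Colon 26 cultures, beside 591 to 1881 and 994 to 1659 counts in the tumors of 100 mm3. Summed over libraries and scaled to library size, tumors of 100 mm3 held 433 times the culture level of Pecam1 in CT-26 (95% exact interval 219 to 1002, counting error only) and 2609 times in Colon 26, where the 2 culture counts leave an interval of 722 to 21550. For Cdh5 the ratios were 488 and 926, from 6 and 5 culture counts. For Kdr they were 212 and 1963, from 8 and 1 culture counts, so the Colon 26 ratio has an interval of 352 to 77570.
Tek, with 12 and 10 counts over the cultures, was 14.97 times higher in CT-26 tumors and 35.5 times higher in Colon 26 tumors. Vegfc had 4 counts in all in CT-26 cultures and 0 in Colon 26 cultures, and was 20.1 times higher in CT-26 tumors and, against a floor of 3 counts over the group, at least 68.9-fold higher in Colon 26 tumors. Angpt1, with 9 and 1 culture counts, was 7.37 times higher in CT-26 tumors and 72.7 times higher in Colon 26 tumors, the latter with an interval of 12.7 to 2909. Pgf, with 21 and 16 culture counts, was 23.7 and 96.0 times higher.
Flt1 and Angpt2 were expressed by the cultured lines themselves. Flt1 was at 3.06, 2.61 and 2.43 CPM in CT-26 cultures and at 5.99, 5.45 and 4.93 CPM in Colon 26 cultures, without overlap. From culture to tumors of 100 mm3 it rose by 3.54 ± 0.22 (log2, SE) in CT-26 and by 3.12 ± 0.07 in Colon 26 (edgeR adjusted p = 3.94e-06 and 2.53e-09). Angpt2 was at 2.07, 1.83 and 1.89 CPM in CT-26 cultures and at 0.565, 0.706 and 0.668 CPM in Colon 26 cultures, again without overlap. It rose by 2.75 ± 0.27 in CT-26 and by 4.38 ± 0.15 in Colon 26 (edgeR adjusted p = 3.91e-05 and 2.25e-08).
Vegfa went the other way. It was at 448, 455 and 453 CPM in CT-26 cultures and at 168, 145.0, 140 and 89.2 CPM in CT-26 tumors of 100 mm3. In Colon 26 it was at 406, 409 and 419 CPM in cultures and at 142, 174, 174 and 168 CPM in tumors of 100 mm3. Every tumor was below every culture of its model, and the log2 fold change was -1.75 ± 0.18 in CT-26 and -1.24 ± 0.07 in Colon 26 (edgeR adjusted p = 5.82e-05 and 5.43e-07).

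The other genes of endothelium and of the pathway are counted from lists written by hand. Of 23 other endothelial identity genes, 21 were DE and higher in CT-26 tumors of 100 mm3 than in culture and 1, Vwf, was DE and lower, while 22 were DE and higher in Colon 26. Cultures were not free of this list, whose summed level was 553 to 593 CPM in CT-26 cultures and 1005 to 1182 CPM in CT-26 tumors of 100 mm3. In Colon 26 it was 891 to 898 CPM in cultures and 890 to 976 CPM in tumors of 100 mm3, so the ranges overlapped. Yet the median log2 fold change of the list in Colon 26 was 6.73, and the 1 gene not DE and higher passed the adjusted p and was lower. The sum therefore does not show that most of the list was expressed in culture. Of 17 other VEGF and angiopoietin pathway genes, 12 were DE and higher in CT-26, and 11 were DE and higher and 1 lower in Colon 26. Markers of other host cells rose as well: the summed level of 6 leukocyte genes was 3.65 to 67.7 CPM over the 6 cultures and 215 to 886 CPM over the 24 tumors. The 5 platelet and megakaryocyte genes summed to 2.03 to 4.96 CPM in cultures and 8.08 to 37.9 CPM in tumors. The pericyte marker Rgs5 was at 0 in all 3 Colon 26 cultures and at 24.2 to 47.0 CPM in the Colon 26 tumors. The part of leukocytes and platelets in the level of Pecam1 was not tested.

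Whether the step from culture to tumor differed between the models was tested as an interaction, in which 17.6% of all genes tested were DE. Vegfc, Pgf, Angpt2 and Angpt1 were DE, 4 of the 10 genes, all with a larger rise in Colon 26. The difference was 1.57 ± 0.32 (log2, SE) for Angpt2 (edgeR adjusted p = 0.00131), whose tumor levels overlapped and whose culture level was lower in Colon 26. It was 2.04 ± 0.58 for Pgf (edgeR adjusted p = 0.0105). The values of 4.53 for Vegfc and 2.85 for Angpt1 (edgeR adjusted p = 0.00484 and 0.0514) rest on the 0 to 9 culture counts given above and are not measures of size. The call of Angpt1 was lost without CT-26 culture replicate 1 or 3 or without Colon 26 culture replicate 1 or 2 (edgeR adjusted p = 0.121 to 0.170). Kdr, with a difference of 2.73 ± 1.48 from 8 and 1 culture counts, did not pass by edgeR (adjusted p = 0.158). DESeq2 called 6 of the 10 genes DE in this interaction, the 4 above with Pecam1 and Kdr, beside 3029 of all genes. Vegfa, with a difference of 0.46 ± 0.22, and Flt1, with -0.47 ± 0.23, did not pass (edgeR adjusted p = 0.102 and 0.114).

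Between the cultured lines, only Flt1, Vegfa and Angpt2 had enough counts to be tested. Angpt2 was DE and lower in Colon 26, by a log2 fold change of -1.60 ± 0.22 (edgeR adjusted p = 5.52e-06), in a comparison in which 22.9% of all genes tested were DE. All 3 genes passed the adjusted p alone, as did 82.6% of all genes. Flt1 was higher in Colon 26 by 0.98 ± 0.13, just under the fold threshold, and Vegfa lower by a log2 fold change of -0.17 ± 0.03 (edgeR adjusted p = 5.01e-06 and 3.70e-05). Flt1 crossed the threshold at 1.10 without CT-26 culture replicate 1 and at 1.06 without Colon 26 culture replicate 3.

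The comparison of the models at equal tumor size asks whether their vessel-related expression differs. In tumors of 100 mm3, 0 of the 10 genes were DE by edgeR, where 13.2% of all genes were. At an unadjusted p under 0.05 there were 3 of the 10 genes and 8543 of all 15406 genes tested. DESeq2 called 1 of the 10, Pgf. With the adjusted p alone 4 of the 10 passed, where 56.5% of all genes did. In tumors of 400 mm3, 2 of the 10 were DE (14.3% of all genes), Vegfc and Angpt1, and 3 passed the adjusted p alone (52.2%). In tumors of 800 mm3, 0 of the 10 were DE by edgeR and 0 by DESeq2 (14.1% of all genes by edgeR), but 7 passed the adjusted p alone (59.4%). Their number at an unadjusted p under 0.05 was also 7, beside 8996 of all 15521 genes tested. These counts lay near or below the shares over all genes and say nothing particular about the 10 genes.

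**Figure D2:**
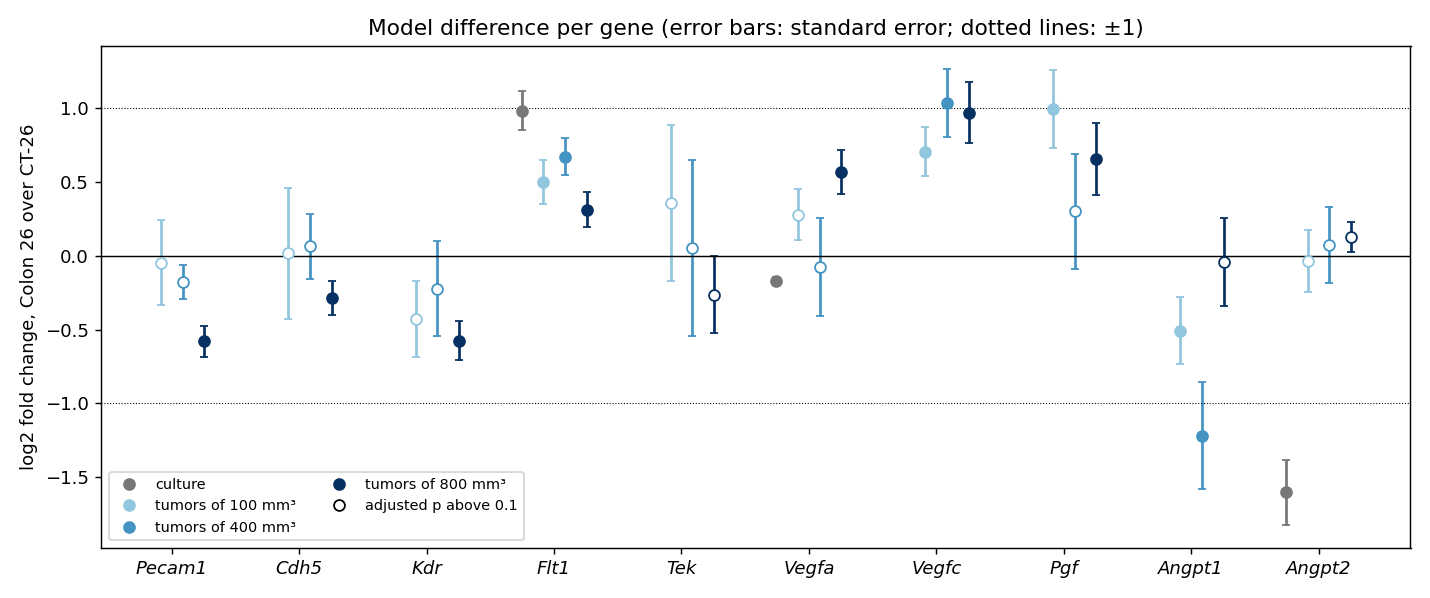
Log2 fold change of Colon 26 over CT-26 (vertical axis) for each gene in cultures (grey) and in tumors of 100, 400 and 800 mm3 (light to dark blue); bars are standard errors, open points have an edgeR adjusted p above 0.1, and the 7 genes not tested in culture have no grey point. Vegfc, Flt1 and Pgf were above 0 at all 3 tumor sizes, Pgf with an open point at 400 mm3. Pecam1, Cdh5 and Kdr were below 0 with filled points at 800 mm3.

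Vegfc was higher in Colon 26 at each size. Its CPM in CT-26 tumors was 1.121, 1.23, 1.11 and 0.928 at 100 mm3, 0.986, 1.27, 0.658 and 0.936 at 400 mm3, and 1.04, 0.901, 0.806 and 0.926 at 800 mm3. In Colon 26 tumors it was 1.83, 2.03, 1.68 and 1.62 at 100 mm3, 1.61, 1.89, 2.24 and 2.15 at 400 mm3, and 1.84, 1.83, 1.41 and 2.19 at 800 mm3. The models did not overlap at any size, on 17 to 75 counts per library.
The log2 fold changes of Vegfc were 0.70 ± 0.17, 1.03 ± 0.23 and 0.97 ± 0.20 (SE) at the 3 sizes, with edgeR adjusted p of 0.00724, 0.00642 and 0.00258. The DE call at 400 mm3 stood close to the fold threshold and was lost, at 0.89 to 0.99, without CT-26 tumor replicate 3 or Colon 26 tumor replicate 3 or 4 of that size. At 800 mm3 Vegfc became DE, at 1.05 and 1.08, without CT-26 tumor replicate 1 or Colon 26 tumor replicate 3.
Pgf was at 5.56, 4.94, 10.99 and 6.02 CPM in CT-26 tumors of 100 mm3 and at 11.2, 11.96, 16.1 and 15.7 CPM in Colon 26 tumors of that size. The highest CT-26 tumor was just below the lowest Colon 26 tumor. The log2 fold change was 0.99 ± 0.26 (edgeR adjusted p = 0.0122), 0.30 ± 0.39 at 400 mm3 (adjusted p = 0.564) and 0.66 ± 0.24 at 800 mm3 (adjusted p = 0.0448), where Pgf did not pass without replicate 4 of CT-26 or of Colon 26 (edgeR adjusted p = 0.102 and 0.138). At 100 mm3 Pgf crossed the fold threshold without CT-26 tumor replicate 3 (1.33), which held the 10.99 CPM, and without Colon 26 tumor replicate 1 (1.09) or 2 (1.07).
Flt1 was at 24.1, 27.5, 41.2 and 33.7 CPM in CT-26 tumors of 100 mm3 and within 43.1 to 45.7 CPM in the 4 Colon 26 tumors. At 400 mm3 it was at 32.1, 28.0, 23.5 and 33.9 CPM in CT-26 and at 40.1, 44.6, 50.7 and 50.8 CPM in Colon 26. The models did not overlap at these sizes and did at 800 mm3, where the means were 38.7 ± 6.17 and 48.5 ± 5.51 CPM (SD, n = 4).
The log2 fold changes of Flt1 were 0.50 ± 0.15, 0.67 ± 0.12 and 0.31 ± 0.12 (edgeR adjusted p = 0.0215, 0.00228 and 0.0444). At 800 mm3 Flt1 did not pass without CT-26 tumor replicate 2 or Colon 26 tumor replicate 1 or 4 (edgeR adjusted p = 0.106 to 0.119). The level of Flt1 in the cultured cells was also higher in Colon 26, and how much of the tumor signal came from tumor cells was not tested.
Angpt1 was at 0.710, 1.45, 1.35 and 1.19 CPM in CT-26 tumors of 400 mm3 and at 0.789, 0.541, 0.307 and 0.364 CPM in Colon 26 tumors, on 10 to 42 counts. A single CT-26 tumor lay among the Colon 26 values. The log2 fold change was -1.22 ± 0.36 at 400 mm3, -0.51 ± 0.23 at 100 mm3 and -0.04 ± 0.30 at 800 mm3 (edgeR adjusted p = 0.0231, 0.0924 and 0.918). At 100 mm3 Angpt1 did not pass with DESeq2 (adjusted p = 0.284) or without any 1 tumor except CT-26 tumor replicate 1 (edgeR adjusted p = 0.105 to 0.211).

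In tumors of 800 mm3 the endothelial genes went both ways: Pecam1, Kdr and Cdh5 passed the adjusted p and were lower in Colon 26, while Flt1, given above, passed and was higher. Pecam1 was at 67.3, 56.6, 59.7 and 59.5 CPM in CT-26 and at 44.4, 42.9, 32.4 and 44.3 CPM in Colon 26, without overlap. Kdr was at 25.2, 18.1, 18.4 and 24.1 CPM in CT-26 and at 14.3, 16.7, 13.9 and 13.3 CPM in Colon 26, also without overlap. Cdh5 was at 51.5, 49.0, 48.5 and 60.2 CPM in CT-26 and at 51.9, 45.02, 35.0 and 41.3 CPM in Colon 26, and the models overlapped.
The log2 fold change was -0.58 ± 0.10 for Pecam1, -0.58 ± 0.13 for Kdr and -0.29 ± 0.12 for Cdh5 (edgeR adjusted p = 0.00101, 0.00445 and 0.0615). Cdh5 did not pass without CT-26 tumor replicate 4 or Colon 26 tumor replicate 3 or 4 of this size (edgeR adjusted p = 0.131 to 0.171). Tek, at -0.26 ± 0.26, did not pass (edgeR adjusted p = 0.421). Of the 23 other endothelial identity genes, 11 passed the adjusted p and were lower in Colon 26 and 2 were higher, with a median log2 fold change of -0.34 beside -0.01 over all genes. The 13 of 23 that passed are near the 59.4% of all genes that did. Only Ecscr, lower at -2.18 ± 0.17, and Vwf, higher at 1.81 ± 0.31, were DE in that list (edgeR adjusted p = 4.37e-06 and 0.000685). Both genes also differed between the cultured lines, where Vwf was lower in Colon 26, at a log2 fold change of -5.07 ± 0.12 (edgeR adjusted p = 1.35e-15).
Other tissue markers moved with model at this size. The 6 skeletal muscle genes summed to 10.7 to 217 CPM in CT-26 tumors of 800 mm3 and to 1.35 to 1.89 CPM in Colon 26 tumors, and all 6 were DE and lower. The 3 erythroid genes summed to 58.8 to 178 CPM in CT-26 and 38.003 to 80.6 CPM in Colon 26, and all 3 were DE and lower. The 6 leukocyte genes summed higher in Colon 26, to 626 to 872 CPM against 448 to 579 CPM in CT-26. Of the 5 tested, 0 were DE and 2 passed the adjusted p, both higher, where 59.4% of all genes passed. The leukocyte marker Ptprc overlapped, at 69.6 to 97.4 CPM in Colon 26 and 54.8 to 99.7 CPM in CT-26. The 9 pericyte and smooth muscle genes summed to 216 to 279 CPM against 181 to 204 CPM, with 2 DE and higher and 1 DE and lower. Their sum also differed between the cultures, at 155 to 168 CPM in Colon 26 and 39.8 to 40.9 CPM in CT-26. The part of adjacent muscle, blood, leukocytes or pericytes in the differences of Pecam1, Kdr, Cdh5 and Flt1 was not tested. Leaving out any 1 tumor kept Pecam1 at -0.62 to -0.47 and Kdr at -0.65 to -0.47.
Vegfa was higher in Colon 26 at 800 mm3, at 216, 215, 173 and 282 CPM against 157, 123, 174 and 139 CPM in CT-26. The lowest Colon 26 tumor lay just below the highest CT-26 tumor, and the log2 fold change was 0.57 ± 0.15 (edgeR adjusted p = 0.00886). At 100 and 400 mm3 it was 0.28 ± 0.17 and -0.07 ± 0.33 (adjusted p = 0.221 and 0.874). Of 8 hypoxia target genes, 7 passed the adjusted p at 800 mm3, all higher in Colon 26, where 59.4% of all genes passed. Of these, 3 were DE, where 14.1% of all genes were DE in either direction. Car9 and Egln3, 2 of the 3, were also DE and higher in Colon 26 in culture and at 100 and 400 mm3. Another gene of the list, Ndrg1, was DE and lower in culture. The part of hypoxia in the difference of Vegfa was not tested. Angpt2 did not pass at any tumor size, with log2 fold changes of -0.04 ± 0.21, 0.07 ± 0.26 and 0.12 ± 0.10.
Of the 17 other VEGF and angiopoietin pathway genes, 3, 1 and 3 were DE at the 3 sizes, all higher in Colon 26 (13.2%, 14.3% and 14.1% of all genes). Fgf2, which encodes basic fibroblast growth factor, was DE at every size, by 1.39 ± 0.16, 1.73 ± 0.18 and 1.72 ± 0.20, and by 2.52 ± 0.07 in culture (edgeR adjusted p at most 0.00014). The others were Vegfb and Angpt4 at 100 mm3 and Vegfb and Thbs1 at 800 mm3. In culture 5 of 10 tested were DE, all higher (22.9% of all genes). Of 12 tip cell and Notch genes, 11 were tested in tumors, and 2, 3 and 2 were DE at the 3 sizes. Jag1, which encodes a Notch ligand, was DE and higher and Esm1, an endothelial secreted gene, DE and lower in Colon 26 in culture and at every tumor size. Unc5b was DE and higher at 400 mm3. In culture 4 of 8 tested were DE.

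Growth from 100 to 800 mm3 was compared within each model. In CT-26, 0 of the 10 genes were DE and 0 passed the adjusted p of edgeR, as for all genes tested (0%). At an unadjusted p under 0.05 there were 1610 of 15298 genes, among them 1 of the 10, Angpt1 (-0.72 ± 0.30), and DESeq2 called 39 genes and 0 of the 10. In Colon 26, 0 of the 10 were DE by edgeR or DESeq2 (1.33% of all genes by edgeR), and 1, Angpt2, passed the adjusted p alone (6.67% of all genes). At an unadjusted p under 0.05 there were 3 of the 10 and 3187 of all 15404 genes tested.
Angpt2 was at 13.6, 12.4, 14.6 and 10.7 CPM in Colon 26 tumors of 100 mm3 and at 16.8, 16.05, 16.9 and 19.1 CPM at 800 mm3, without overlap. The log2 fold change was 0.41 ± 0.10 (edgeR adjusted p = 0.0613), and Angpt2 did not pass without Colon 26 replicate 1, 2 or 4 of 100 mm3 or replicate 1, 3 or 4 of 800 mm3 (edgeR adjusted p = 0.105 to 0.144). In CT-26 it was 0.26 ± 0.21 (edgeR adjusted p = 0.664). A difference between the models in this change was not shown, since the interaction was 0.15 ± 0.24 (edgeR adjusted p = 0.845). In that interaction test 0 of the 10 genes passed by edgeR or DESeq2 or at an unadjusted p under 0.05. Of all 16238 genes tested, 0.0308% were DE and 2031 had an unadjusted p under 0.05. The 6 skeletal muscle genes were all DE and lower at 800 than at 100 mm3 in Colon 26, where they summed to 121 to 1326 CPM at 100 mm3; their part in the values of Angpt2 was not tested.
At 400 mm3 the level of Vegfa was widest. It was at 266, 267, 320.5 and 113 CPM in CT-26 tumors and at 127, 301, 258 and 234 CPM in Colon 26 tumors. The tumor with 113 CPM also had the highest Cdh5 (44.8 CPM), Kdr (25.8 CPM) and Tek (4.55 CPM) of its group. The Colon 26 tumor with 127 CPM had instead the lowest Cdh5 (29.2 CPM) and Kdr (11.2 CPM) of its group, and the highest Tek (3.35 CPM). Over genes with enough counts, its chi-square per degree of freedom against the others of its group was 44.3 to 63.0. Among those others it was 10.6 to 13.4. For the CT-26 tumor with 113 CPM these were 33.1 to 64.1 and 18.0 to 42.5. The 6 skeletal muscle genes summed to 0.947 to 250 CPM in CT-26 tumors of 400 mm3 and to 1.42 to 2548 CPM in Colon 26 tumors. Their part in these values was not tested.

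Tumors of 1 group differed widely in endothelial expression in CT-26 at 100 and 400 mm3. At 100 mm3 the highest tumor held 4.86 times the lowest for Cdh5, 5.48 times for Tek and 2.51 times for Kdr, and at 400 mm3 2.07, 8.40 and 3.25 times. At 800 mm3 these were 1.24, 1.40 and 1.39 times. In Colon 26, at 100, 400 and 800 mm3, they were 1.45, 1.63 and 1.48 times for Cdh5 and 1.32, 1.68 and 1.25 times for Kdr. For Tek they were wider, at 1.52, 3.94 and 2.39 times. The lowest Tek value rested on 18 and 14 counts in CT-26 at 100 and 400 mm3, and on 22 counts in Colon 26 at 400 mm3. At 100 mm3 the CT-26 tumors of 103.33 and 106.18 mm3 had 14.6 and 20.8 CPM of Cdh5, and the tumors of 136.03 and 145.86 mm3 had 71.1 and 52.8 CPM. Tek was at 0.747, 0.928, 3.96 and 4.09 CPM and Kdr at 12.5, 19.1, 31.4 and 28.7 CPM in the same order. In the 4 Colon 26 tumors of that size Cdh5 ranged from 35.7 to 51.7 CPM. The 6 skeletal muscle genes summed to 0.996 to 523 CPM in CT-26 tumors of 100 mm3 and to 121 to 1326 CPM in Colon 26 tumors. The part of adjacent muscle in this spread and in the correlations below was not tested.
To see which genes moved together, the mean of each model and size was subtracted from log2 CPM. Over all 24 tumors, Pearson's r of these deviations with Cdh5 was 0.93 for Pecam1, 0.84 for Kdr, 0.79 for Flt1 and 0.79 for Tek, and 0.54 for Angpt2. It was 0.21 for Pgf, 0.19 for Vegfc and -0.31 for Vegfa, and Vegfa and Pgf had r = 0.70 with each other. These values describe the same libraries, and Angpt1, below 1 CPM on average in tumors, was left out.

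**Figure D3:**
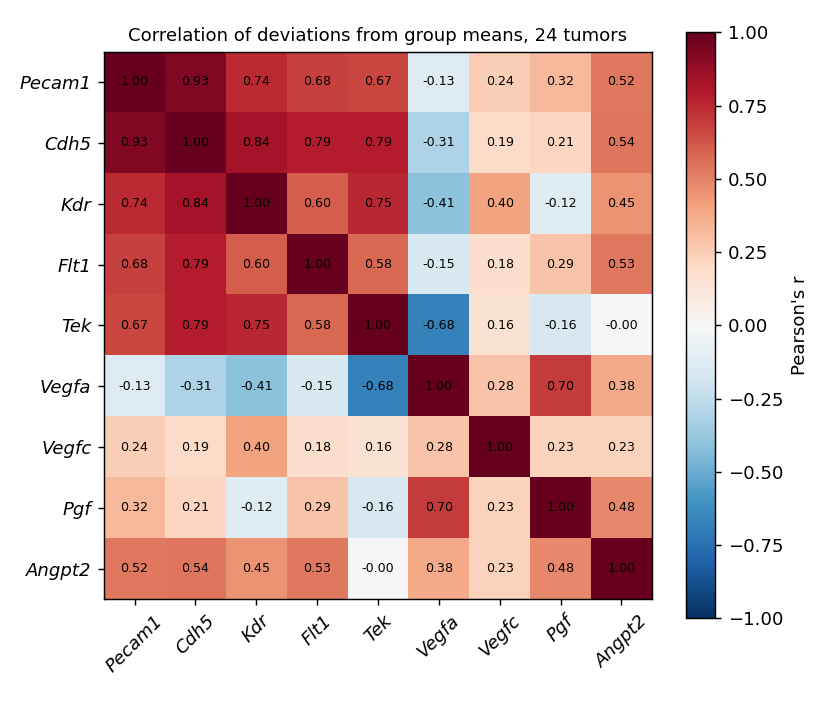
Pearson's r of deviations from group means (log2 CPM minus the mean of each model and size) for each pair of 9 genes over 24 tumors, from -1 (blue) to 1 (red). The first 5 genes, the endothelial surface and receptor genes, form a block with r from 0.58 to 0.93. Vegfa has negative r with each of these 5 over both models together, but within models its r with Cdh5 was -0.50 in CT-26 and 0.30 in Colon 26.

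In each model separately, 20 relations over 12 tumors were tested by permuting tumors within a size, and were chosen after levels had been seen. In CT-26, r with Cdh5 was 0.94 for Pecam1 (rho = 0.82), 0.84 for Kdr (rho = 0.89), 0.83 for Flt1 (rho = 0.74) and 0.91 for Tek (rho = 0.96). The permutation p of r was 0.00718, 0.00077, 0.00359 and 0.00144, and after adjustment over the 20 relations 0.0205, 0.00513, 0.0144 and 0.0072. The permutation p of rho was 0.0574, 0.00211, 0.0306 and 0.00085, or 0.0884, 0.0141, 0.0613 and 0.0085 adjusted. For these relations the threshold is an adjusted permutation p of 0.05, which Pecam1 and Flt1 passed for r but not for rho. Without the 2 tumors farthest in Cdh5, r was 0.85, 0.80, 0.67 and 0.94.
In Colon 26, r with Cdh5 was 0.92 for Pecam1 (rho = 0.91) and 0.79 for Kdr (rho = 0.77), with permutation p of 0.00048 and 0.0101 (0.00513 and 0.0252 adjusted; for rho 0.00079 and 0.00963, or 0.0085 and 0.0301 adjusted). Without the 2 farthest tumors these were 0.85 and 0.57. Flt1 (r = 0.58, rho = 0.63) and Tek (r = 0.26, rho = 0.28) did not pass an adjusted permutation p of 0.05 for r or rho. Their permutation p was 0.0863 and 0.507 for r (0.133 and 0.534 adjusted) and 0.0421 and 0.417 for rho (0.0766 and 0.491 adjusted). A difference between the models in r was not tested.
Vegfa followed the mean of the 8 hypoxia target genes in both models, with r = 0.88 (rho = 0.85) in CT-26 and r = 0.86 (rho = 0.76) in Colon 26. The permutation p of r was 0.00571 and 0.0006 (adjusted 0.019 and 0.00513) and that of rho 0.00586 and 0.0105 (adjusted 0.0234 and 0.0301). Without the 2 tumors farthest on the hypoxia mean, r was 0.65 and 0.76. Cdh5 had r = -0.69 (rho = -0.78) with the hypoxia mean in CT-26 and r = -0.0037 (rho = 0.15) in Colon 26. The permutation p in CT-26 was 0.0379 for r and 0.0176 for rho (0.0758 and 0.0432 adjusted), and in Colon 26 0.992 and 0.663, also after adjustment. Angpt2 had r = 0.78 with Cdh5 in CT-26 (rho = 0.79, permutation p = 0.0164 and 0.00291, adjusted 0.0364 and 0.0145). Without the 2 tumors farthest in Cdh5 this r fell to 0.44, so its size depends on them. The rho was not recomputed without these tumors. Of the other 7 relations, of Pgf and Angpt2 with the hypoxia mean in both models, Vegfa with Cdh5 in both and Angpt2 with Cdh5 in Colon 26, r lay between -0.50 and 0.71 and none passed an adjusted permutation p of 0.05 for r. Vegfa with Cdh5 in CT-26 (r = -0.50) passed for rho (-0.71, permutation p = 0.0195, 0.0432 adjusted). In Colon 26 Vegfa with Cdh5 had the other sign, r = 0.30 and rho = 0.24 (permutation p = 0.438 and 0.469).

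**Figure D4:**
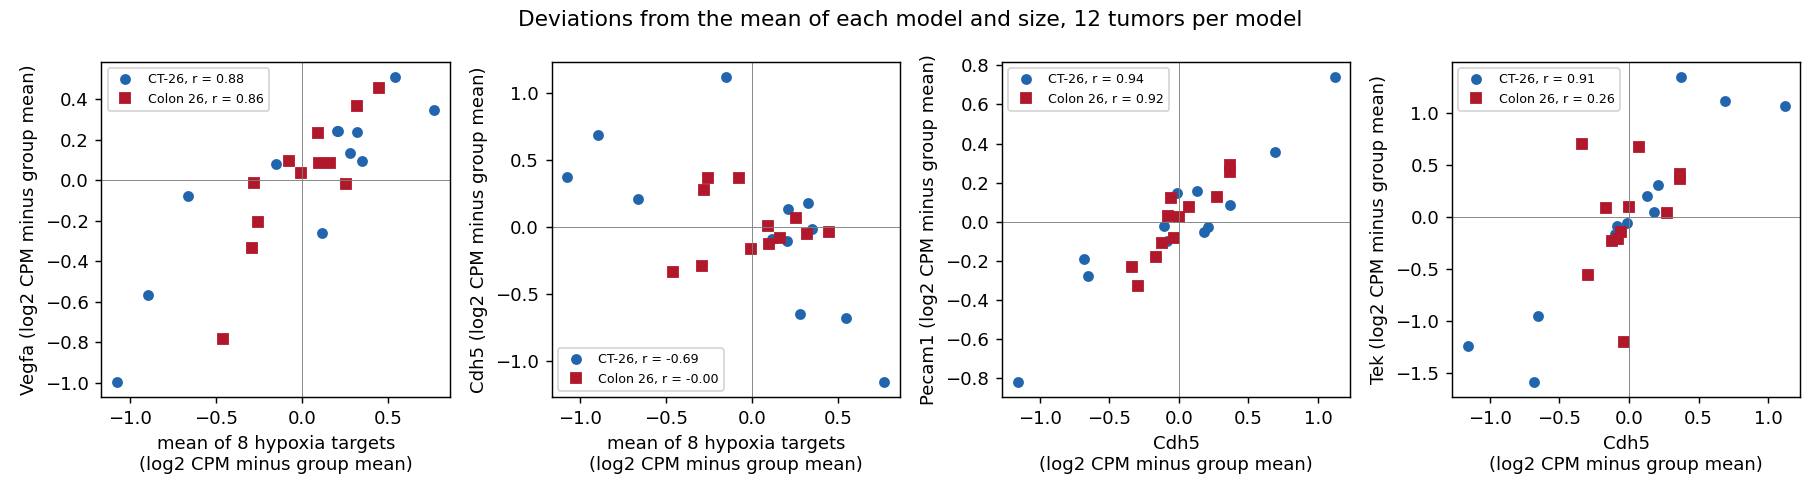
Deviations of log2 CPM from the mean of each model and size for 12 CT-26 tumors (blue circles) and 12 Colon 26 tumors (red squares), each panel plotting 1 gene against Cdh5 or against the mean of 8 hypoxia target genes. Vegfa rises with the hypoxia mean in both models (r = 0.88 and 0.86), and Tek rises with Cdh5 in CT-26 (r = 0.91) with a wide scatter in Colon 26 (r = 0.26).

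Levels were also set against Cdh5 within each tumor, as a description of expression per unit of an endothelial gene, in 15 two-sided exact permutation tests chosen after levels had been seen. The smallest p that 4 tumors against 4 allow is 0.0286, and 0 of the 15 passed after adjustment. With this floor a single ratio could not pass an adjustment over 15 tests whatever its size, so the failure to pass decides nothing. The log2 ratio of Angpt2 to Cdh5 at 800 mm3 was -1.32 in Colon 26 and -1.74 in CT-26, a difference of 0.42 without overlap, with an exact p of 0.0286 (0.171 adjusted). The ratio of Flt1 differed by 0.59 at 400 mm3 and by 0.61 at 800 mm3. That of Kdr differed by -0.63 at 100 mm3 and that of Pecam1 by -0.30 at 800 mm3. Each of these had an exact p of 0.0571 (0.171 adjusted) and overlapping ranges.

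The genes most like each member were found among 13503 genes with a mean of at least 1 CPM in tumors, by r of deviations over the 24 tumors. Nearest to Cdh5 were Mcam (r = 0.98), Robo4 (0.97) and Sparcl1 (0.96), and nearest to Pecam1 were Cdh5 (0.93), Mmrn2 (0.91) and Rnf144a (0.91). Kdr was nearest to Zfp366 (0.95), Adgrl4 (0.93) and Lama4 (0.93), and Tek to Fzd4 (0.94), Sox18 (0.91) and Pik3c2b (0.90). Flt1 was nearest to Nid2 (0.89), Dll4 (0.89), a Notch ligand, and Flt4 (0.89), the VEGF-C receptor.
Among the ligands, Vegfa was nearest to Lrrfip1 (0.95), Tiparp (0.94) and Kdm4b (0.94). Vegfc was nearest to Zfp469 (0.83), Clip3 (0.80) and Galm (0.79), Pgf to 1810026B05Rik (0.83), Parp6 (0.82) and Btrc (0.81), and Angpt2 to Wdr59 (0.80), Zfp664 (0.79) and Ctcf (0.79). These are the highest of 13503 values and are given with no test. The neighbours of Angpt2 were nearer in Colon 26 (r = 0.85 to 0.87) than in CT-26 (0.63 to 0.68), and those of Kdr nearer in CT-26 (0.96 to 0.99) than in Colon 26 (0.65 to 0.77), differences that were not tested.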

How the data were processed

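RNA-seq of poly-A RNA from 6 cultures and 24 tumors was analysed. Per the labels and the methods of the study, the authors counted reads on Ensembl release 78 genes with Array Studio and deposited estimated counts, not normalized, and FPKM. They tested with DESeq2 1.24.0, as the submitters' processing notes say. The aligner, the genome build and the handling of strand are not given in the sources used here. Estimated counts, of which 23.0% of non-zero values are not whole, were rounded to whole counts, as the design provided. Of 53431 identifiers, 52207 (97.7%) had a GENCODE M21 symbol. No per-sample column was left unused (0 columns).

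Groups came from the labels, which carry no replicate numbers. Each comparison used edgeR 4.0.16 in R 4.3.3 (quasi-likelihood test, TMM, edgeR's filter on low counts, Benjamini-Hochberg adjustment over all genes tested, only the libraries compared), checked on simulated data. DE required an adjusted p up to 0.1 and a log2 fold change of 1 or more either way, the study's thresholds; standard errors came from the F statistic. Log2 CPM used a prior count of 2. Correlations were permuted 100000 times within a size and adjusted over the 20 relations tested. Alternatives were DESeq2 1.42.0, RLE or plain library sizes, no filter, all 30 libraries in one fit, limma 3.58.1 on log2(FPKM + 1) and log2(FPKM + 0.1), no minimum fold change, and leaving out each library. Other steps used Python 3.11.15, numpy 2.4.6, pandas 2.3.3, scipy 1.17.1 and matplotlib 3.10.9. Every pair of libraries of a group differed by more than sampling noise. All 10 members are named; of other lists, DE genes are named, at most 4 per list and comparison, and for each member the 3 most similar genes. The members and lists were chosen with earlier results of these data known. Intervals, at 95%, and floors cover counting error only.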

Additional observations from a re-analysis of the deposited data

Results flagged for a closer look

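Of 60 groups of 4 tumors (10 genes in 6 groups), 2 held a tumor far from the other 3 by Dixon's criterion, where about 1 in 20 groups, or 3, do so by chance. Pecam1 was at 32.4 CPM in 1 Colon 26 tumor of 800 mm3 and at 42.9 to 44.4 CPM in the other 3. Cdh5 was at 51.7 CPM in 1 Colon 26 tumor of 100 mm3 and at 35.7 to 37.8 CPM in the others.

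The rise from culture to tumors of 100 mm3 differed between the models, by an edgeR interaction term, for Vegfc (4.53 on the log2 scale), Angpt1 (2.85), Pgf (2.04) and Angpt2 (1.57). For Vegfc and Angpt1 the size depends on 4 and 9 counts in the CT-26 cultures and 0 and 1 in the Colon 26 cultures. The parts of library depth, which was higher in the Colon 26 cultures, and of the separate series of library numbers were not tested.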

How the results depend on the processing

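Of 1509 fold changes of the 10 genes recomputed under the alternatives, 1422 kept their direction and side of the DE thresholds, 18 gained and 21 lost a DE call, and 48 changed sign. The counts of DE genes from culture to tumor stayed at 10 in both models in all alternatives but limma on log2(FPKM + 1), which called 7 in each, and the counts of 0 for growth in CT-26 and for the size interaction stayed at 0. The cause of the changes below was not tested unless stated.

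Between cultures the count of DE genes was 1 as reported, beside 3283 of all 14334 genes tested. It was 3 with no minimum fold change (11842 of 14334 genes) and 2 with DESeq2 (3927 genes). With no filter, which tests genes with few counts, it was 6 (4899 of 25971 genes), and with all 30 libraries in one fit 4 (3795 of 17139). It was 0 with limma on log2(FPKM + 1) (1519 of 14334 genes), and 1 to 2 leaving out a library. In tumors of 100 mm3 it was 0 as reported (2038 of 15406 genes) and 4 with no minimum fold change (8710 of 15406). It was 1 each with DESeq2, RLE, library size only, no filter, limma on log2(FPKM + 0.1) and all 30 libraries in one fit, which called 1721 to 2928 of all genes. Leaving out a library gave 0 to 1, and in each fit with 1 call the gene was Pgf. At 400 mm3 it was 2 as reported (2176 of 15241 genes) and 1 to 2 leaving out a library. It was 0 with limma on log2(FPKM + 1) or log2(FPKM + 0.1) (951 and 1859 of 15241 genes), whose pseudocounts shrink the folds of low genes. At 800 mm3 it was 0 as reported (2192 of 15521 genes) and 7 with no minimum fold change (9213 of 15521). It was 1 (Vegfc) with library size only (2195 of 15521 genes) and 0 to 1 leaving out a library. For growth in Colon 26 it was 1 with no minimum fold change (1028 of 15404 genes) and 0 as reported (205 of 15404). For the interaction of tissue and model it was 4 as reported (2904 of 16501 genes) and 6 with DESeq2 (3029 genes), which added Pecam1 and Kdr. It was 3 with limma on log2(FPKM + 0.1), 1 with limma on log2(FPKM + 1), and 3 to 4 leaving out a library.

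With all 30 libraries in one fit, Vegfa in culture (adjusted p = 0.514), Angpt1 at 100 mm3 (0.293), Cdh5 at 800 mm3 (0.462) and Angpt2 in Colon 26 growth (0.319) no longer passed the adjusted p. Cdh5 at 800 mm3 also missed it with library size only (0.109) and limma (0.116 and 0.121), and Angpt1 at 100 mm3 with library size only (0.127), no filter (0.208) and limma (0.166 and 0.207).

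Of the 48 fold changes that changed sign, 47 passed no threshold in either fit. At 100 mm3 Pecam1 became 0.095 and 0.11 with limma on log2(FPKM + 1) and log2(FPKM + 0.1), and Angpt2 0.00406 with library size only and 0.035 and 0.052 with limma. At 400 mm3 Vegfa became 0.000314 with library size only and 0.015 and 0.016 with limma. At 800 mm3 Angpt1 became 0.020 with library size only and 0.0013 and 0.021 with limma. In the interaction of tissue and model, limma on log2(FPKM + 1) gave -0.22 for Kdr (2.73 as reported), 0.14 for Flt1 and -0.029 for Angpt1, which was DE at 2.85 as reported, and limma on log2(FPKM + 0.1) gave -0.10 for Kdr. Leaving out a library gave, for the model difference at 100 mm3, -0.24 to 0.26 for Pecam1, -0.24 to 0.48 for Cdh5 and -0.13 to 0.24 for Angpt2. At 400 mm3 it gave -0.12 to 0.19 for Cdh5, -0.46 to 0.037 for Kdr, -0.27 to 0.65 for Tek, -0.31 to 0.12 for Vegfa and -0.17 to 0.28 for Angpt2, and at 800 mm3 -0.17 to 0.22 for Angpt1. For growth it gave -0.29 to 0.10 for Kdr and -0.034 to 0.25 for Vegfa in CT-26, and -0.0067 to 0.21 for Cdh5, -0.10 to 0.11 for Vegfc and -0.14 to 0.23 for Pgf in Colon 26. For the size interaction it gave -0.35 to 0.042 for Kdr and -0.11 to 0.26 for Angpt2.

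No paired analysis was possible because the labels carry no replicate numbers. Depth limits Vegfc and Angpt1, which had 10 to 75 counts per tumor, and Tek, which had 14 to 130. It also limits the 7 genes with too few culture counts to be tested between the lines.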
